A study of Mus musculus with 9 samples.

Results

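Matricellular proteins are secreted proteins that lodge in the extracellular matrix and act on cells there rather than forming its load-bearing fibres. The 10 genes described here encode such proteins, or matrix proteins that work with them, and all are known from cardiac fibrosis: Postn, Ccn2, Thbs1, Thbs4, Cilp, Fmod, Ltbp2, Sparc, Tnc and Spp1. They were chosen by name, with earlier results of these data known. They are the rows of the count table whose Ensembl identifier carries one of these mouse symbols. All 10 were found among the 55401 genes of the table, and all 10 had enough counts to be tested, as had 19091 genes in all.

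Poly(A) RNA of mouse hearts was sequenced in 9 libraries from the strain C57BL/6, in 3 groups of 3. Kmo_AngII hearts were labelled as Kmo together with angiotensin II, the peptide hormone that raises blood pressure and is widely used to bring on hypertrophy and fibrosis of the heart. AngII hearts were labelled with angiotensin II alone, and Ctrl hearts with the salt buffer PBS. The labels do not say what Kmo stands for, and give no dose, duration, age or route. The sample titles begin with the letters KKA, WA or WC, also unexplained, and these letters cut across the treatment labels. KKA marks all 3 Kmo_AngII libraries. WA marks AngII replicate 3 and Ctrl replicates 2 and 3, and WC marks AngII replicates 1 and 2 and Ctrl replicate 1. The sources used here do not settle whether the labels or the letters mark what each heart received, so a comparison of AngII with Ctrl hearts holds only as far as the labels are right. Both groupings are therefore given, with every library kept in its labelled group.

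In an injured heart, fibroblasts and the myofibroblasts that arise from them secrete these proteins, which tie integrin signalling, collagen assembly and the release of TGF-beta together. Latent TGF-beta is held in the matrix by binding proteins until proteases, integrins or thrombospondins free it, and the active cytokine in turn induces many matrix genes. In a resting adult heart most members of the family are low, and Sparc, a collagen-binding glycoprotein, is one that is made all the time.

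Total counts ranged from 56827533 to 73194268 per library. The share from mitochondrially encoded genes lay between 30.3% and 55.5%. Whether replicates are separate animals is not stated, so each p-value speaks for the spread among these libraries and that spread may be technical. In RNA from whole tissue, fewer cells of a type and less RNA per cell cannot be told apart. The 6 cardiomyocyte markers were abundant in every library, with a summed level of 15001 to 42427 CPM (counts scaled to TMM-normalised library size). Kmo_AngII replicate 3 stood apart: its 8 fibroblast markers summed to 1979 CPM, against 597 to 901 CPM in the other 8 libraries, its 6 epicardial and mesothelial markers to 84.3 CPM, against 4.07 to 18.4 CPM, and its cardiomyocyte sum was the lowest. Gsn gave 1526.5 CPM of the fibroblast sum in Kmo_AngII replicate 3. That library also held 288.9 CPM of the atrial gene Sln and 468.7 CPM of the atrial gene Myl7. Ctrl replicate 2 held 35.0 CPM of Sln and 47.7 CPM of Myl7, and the other 7 libraries had less than 1 CPM of either. Group comparisons are given with and without these libraries where leaving one out turned a median or moved it by over 1.5 times.

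The members spanned a wide range of expression. Per kilobase of annotated exon, Sparc was the most abundant at a mean of 65.4 CPM per kb over the 9 libraries. Ccn2 followed at 19.8 CPM per kb, then Postn at 4.21, Cilp at 3.64, Thbs4 at 2.07, Thbs1 at 1.04, Fmod at 0.978, Ltbp2 at 0.632, Spp1 at 0.461 and Tnc at 0.133 CPM per kb. Spp1 and Tnc therefore rested on few reads, with 27 to 75 raw counts of Spp1 and 29 to 119 of Tnc per library. The order by abundance was not the order by variability. Between the highest and lowest library, Fmod differed 76.3-fold in CPM (708 and 12 raw counts), Ltbp2 15.2-fold, Thbs4 11.2-fold and Postn 10.3-fold. The smallest spans were those of Sparc, at 2.38-fold, Spp1, at 3.18-fold, and Thbs1, at 3.62-fold.

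**Figure D1:**
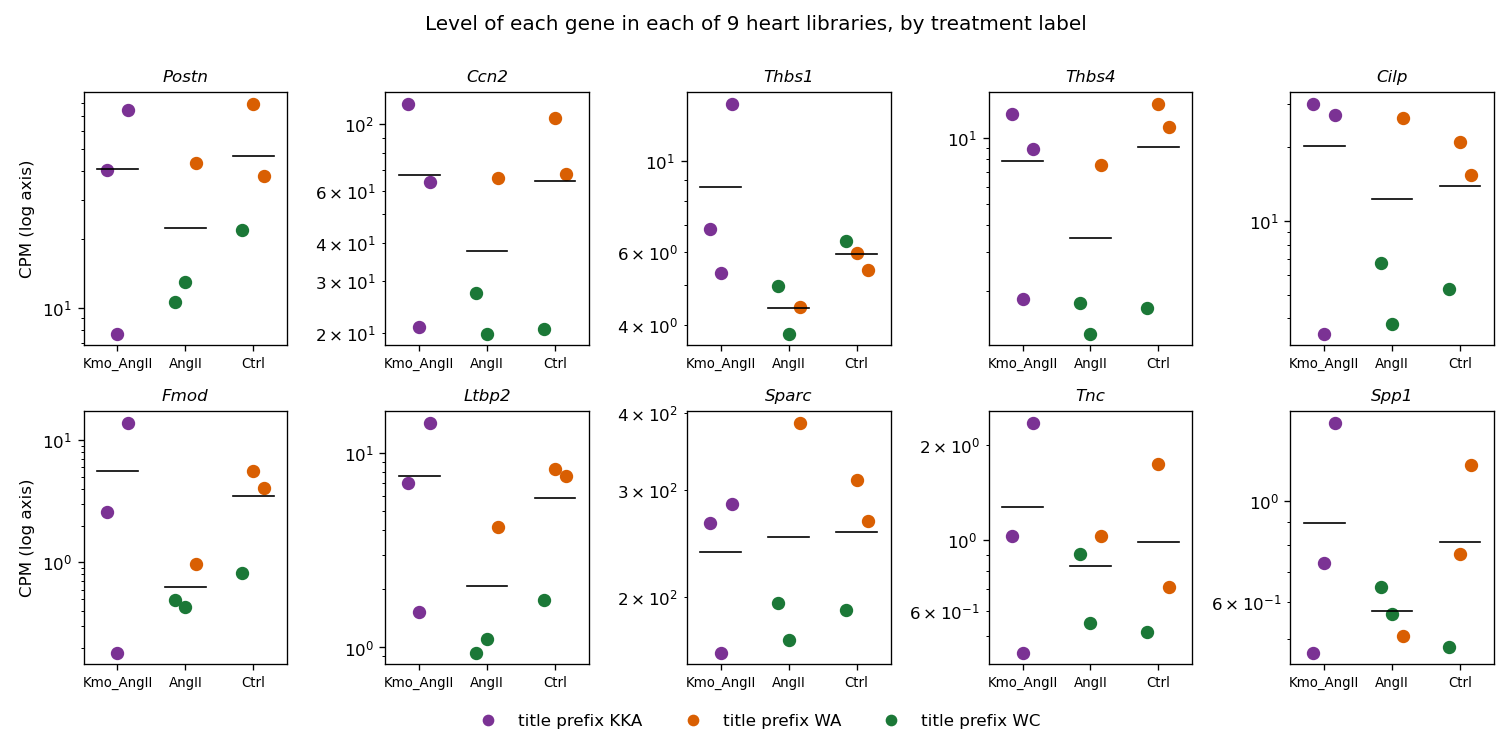
Level of each of the 10 genes in each library, in CPM on a log axis, by treatment label (Kmo_AngII, AngII, Ctrl), with 1 point per library coloured by title prefix and a line at each group's mean. Within the AngII and Ctrl groups the WA libraries lie above the WC libraries for Postn, Ccn2, Thbs4, Cilp, Fmod, Ltbp2 and Sparc.

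Ccn2 (ENSMUSG00000019997), also called connective tissue growth factor, is a secreted target of TGF-beta and of YAP and TEAD that promotes matrix production. Its level was 117, 20.9 and 64.1 CPM in Kmo_AngII replicates 1, 2 and 3. It was 27.4, 19.96 and 66.1 CPM in AngII replicates 1, 2 and 3, and 20.6, 105 and 67.9 CPM in Ctrl replicates 1, 2 and 3. Each group thus held at least 1 library near 20 CPM and at least 1 above 60 CPM, and the groups overlapped throughout.

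Thrombospondins bind calcium, integrins and matrix proteins. Thbs1 (ENSMUSG00000040152), a known activator of latent TGF-beta, had 6.83, 5.35 and 13.8 CPM in Kmo_AngII hearts, 4.96, 3.81 and 4.41 CPM in AngII hearts, and 6.38, 5.99 and 5.42 CPM in Ctrl hearts, in replicate order. All 3 AngII values lay below every value of the other groups. Thbs4 (ENSMUSG00000021702), which is known in mice to be raised by pressure overload and to act partly inside the secretory pathway, had 12.8, 1.83 and 8.94 CPM in Kmo_AngII hearts, 1.75, 1.28 and 7.501 CPM in AngII hearts, and 1.67, 14.4 and 11.2 CPM in Ctrl hearts. Thbs4 fell into high libraries at 7.501 CPM or more and low libraries at 1.83 CPM or less, with both kinds in every group.

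Postn (ENSMUSG00000027750) encodes periostin, an integrin ligand that marks activated fibroblasts in the injured mouse heart. It had 40.4, 7.69 and 74.5 CPM in Kmo_AngII hearts, 10.6, 12.98 and 43.6 CPM in AngII hearts, and 22.1, 79.5 and 38.1 CPM in Ctrl hearts. Its highest value was thus in a heart labelled PBS, and its lowest in a Kmo_AngII heart. Tnc (ENSMUSG00000028364), the large anti-adhesive protein tenascin-C, had 1.03, 0.442 and 2.35 CPM in Kmo_AngII hearts, 0.907, 0.550 and 1.03 CPM in AngII hearts, and 0.514, 1.74 and 0.712 CPM in Ctrl hearts. Spp1 (ENSMUSG00000029304) encodes osteopontin, a ligand of integrins and CD44 made by macrophages and fibroblasts. It had 0.466, 0.732 and 1.48 CPM in Kmo_AngII hearts, 0.648, 0.565 and 0.507 CPM in AngII hearts, and 0.478, 0.763 and 1.198 CPM in Ctrl hearts. For both Tnc and Spp1 the highest value was in Kmo_AngII replicate 3, and the AngII values lay inside the range of the Ctrl values.

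Sparc (ENSMUSG00000018593) binds collagen and takes part in its assembly. It had 264, 162 and 284 CPM in Kmo_AngII hearts, 196, 170.3 and 386 CPM in AngII hearts, and 190.1, 311 and 266 CPM in Ctrl hearts, so the highest and lowest values of the AngII hearts enclosed all Ctrl values. Cilp (ENSMUSG00000042254), a secreted protein known to bind TGF-beta and to oppose its signalling, had 30.2, 3.46 and 27.1 CPM in Kmo_AngII hearts, 6.76, 3.81 and 26.4 CPM in AngII hearts, and 5.26, 21.1 and 15.3 CPM in Ctrl hearts. Each group again had a library under 6 CPM and a library above 20 CPM.

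Fmod (ENSMUSG00000041559) encodes fibromodulin, a small leucine-rich proteoglycan that binds collagen fibrils. It had 2.58, 0.183 and 14.0 CPM in Kmo_AngII hearts, 0.495, 0.431 and 0.965 CPM in AngII hearts, and 0.815, 5.60 and 4.05 CPM in Ctrl hearts. Ltbp2 (ENSMUSG00000002020) belongs to the latent TGF-beta binding protein family by sequence and is known as a partner of fibrillin and elastic fibres. It had 6.97, 1.53 and 14.3 CPM in Kmo_AngII hearts, 0.942, 1.10 and 4.17 CPM in AngII hearts, and 1.75, 8.25 and 7.57 CPM in Ctrl hearts. Both genes were highest in Kmo_AngII replicate 3, and the largest and smallest Fmod values were both in Kmo_AngII hearts.

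The comparison of AngII with Ctrl hearts asks, if the labels are right, how these genes differ under the hormone. All 10 members were lower in AngII hearts, with a median log2 difference of -0.64, beside 0.02 over all genes tested, but the test passed none of them. That median was -1.42 without AngII replicate 3 and -0.98 without Ctrl replicate 1. With the title prefix as a covariate it was -0.38, with 3 members positive and 7 negative. By edgeR's quasi-likelihood test with Benjamini-Hochberg adjustment over all genes, 0 of 10 members and 0% of genes had an adjusted p under 0.05. At an unadjusted p under 0.05 there were 0 members, against 5.25% of genes (1003), and the DESeq2 Wald test called 2 genes and 0 members. The largest difference was that of Fmod, which averaged 0.630 ± 0.292 CPM in AngII hearts and 3.49 ± 2.44 CPM in Ctrl hearts (SD, n = 3 each), which is -2.46 ± 1.16 (SE) on the log2 scale (edgeR adjusted p = 0.8905). Ltbp2 had a log2 difference of -1.50 ± 0.85, Thbs4 of -1.37 ± 0.91, Postn of -1.06 ± 0.79 and Ccn2 of -0.77 ± 0.70. Thbs1 averaged 4.39 ± 0.576 CPM in AngII hearts and 5.93 ± 0.482 CPM in Ctrl hearts, and was the 1 member whose groups did not overlap, lower in AngII hearts, as were 5.74% of genes. Its log2 difference was -0.43 ± 0.33 (edgeR adjusted p = 0.907). Spp1, Tnc, Cilp and Sparc had log2 differences of -0.50, -0.25, -0.17 and -0.03. With library size as the only scaling, which moved the median of all genes to 0.67, Thbs1, Cilp, Sparc, Tnc and Spp1 turned positive and all 10 members lay below that median.

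Kmo_AngII hearts were set against AngII hearts, which were labelled with the same hormone. Of the 10 members, 9 were higher in Kmo_AngII hearts, with a median log2 difference of 0.85, beside 0.03 over all genes. Again 0 of 10 members and 0% of genes were called by edgeR, and DESeq2 called 3 genes and 0 members. At an unadjusted p under 0.05 the 2 members were Thbs1 and Fmod, both higher, as were 1.54% of genes. Thbs1 averaged 8.66 ± 4.51 CPM in Kmo_AngII hearts and 4.39 ± 0.576 CPM in AngII hearts, with no overlap, as for 3.22% of genes in that direction. Its log2 difference was 0.98 ± 0.34, with an edgeR adjusted p = 0.9998. Fmod had a log2 difference of 3.13 ± 1.19 (edgeR adjusted p = 0.9998), and Ltbp2 of 1.87 ± 0.86. Without Kmo_AngII replicate 3, the library with the high fibroblast, epicardial and atrial markers, the log2 difference was 0.47 for Thbs1, 1.14 for Fmod and 1.04 for Ltbp2, and the median of the members was 0.46. Without AngII replicate 3 that median was 1.65. The 9 macrophage markers had positive log2 differences as well, 6 of them with an unadjusted p under 0.05 and none called, and they summed to 87.6 to 219 CPM in Kmo_AngII hearts and 80.2 to 113 CPM in AngII hearts. The part of those cell types in the difference was not tested. Sparc, at -0.08, was the member with a negative value, which became 0.37 without AngII replicate 3.

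Kmo_AngII hearts were also set against Ctrl hearts, and the 3 comparisons by treatment label share libraries with each other. Here 7 of 10 members were higher and 3 lower in Kmo_AngII hearts, with a median log2 difference of 0.25, beside 0.05 over all genes. By edgeR 0 of 10 members and 0% of genes were called, and no member had an unadjusted p under 0.05, against 2.79% of genes. DESeq2 called 9 genes and 0 members. The direction of the median rested on single libraries: it was -0.36 without Kmo_AngII replicate 3 and -0.10 without Ctrl replicate 1, against 0.63 without Kmo_AngII replicate 2 and 0.58 without Ctrl replicate 2. With all libraries the values lay between -0.20 for Thbs4 and 0.68 for Fmod, each smaller than its SE except for Thbs1, at 0.55 ± 0.33.

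Grouped by title prefix, the same values fell apart more clearly. Thbs4 averaged 11.01 ± 3.43 CPM in the WA libraries and 1.57 ± 0.253 CPM in the WC libraries (SD, n = 3 each), and Ccn2 averaged 79.5 ± 21.8 CPM in WA and 22.6 ± 4.11 CPM in WC. In 7 members (Postn, Ccn2, Thbs4, Cilp, Fmod, Ltbp2 and Sparc) every WA value lay above every WC value, which held for 16.5% of genes tested in the fit of 9 libraries. The other 3 members overlapped, and Thbs1 averaged 5.27 ± 0.800 CPM in WA and 5.05 ± 1.29 CPM in WC. Since WA holds 1 AngII and 2 Ctrl libraries and WC the reverse, the prefix and the treatment label are partly confounded, and neither letter is explained.

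When the 6 WA and WC libraries were fitted alone, edgeR called 7 of the 10 members, all higher in WA, against 13.3% of the 18111 genes tested in either direction (2409) and 8.06% as higher (1459). The median log2 difference of the members was 1.83, beside -0.01 over all genes. The members were chosen with earlier results of these data known, so both contrasts are a description and no test of the list. Thbs4 differed most among the members, 7.08-fold, with a log2 difference of 2.82 ± 0.28 (edgeR adjusted p = 0.000982). Ltbp2 had 2.41 ± 0.34 (edgeR adjusted p = 0.00336), Cilp 2.001 ± 0.26 (edgeR adjusted p = 0.00242) and Ccn2 1.83 ± 0.22 (edgeR adjusted p = 0.00223). These 4 calls held under all 14 alternatives of this fit. Fmod had 2.62 ± 0.58 (edgeR adjusted p = 0.0174), which is the second largest difference, Postn 1.84 ± 0.35 (edgeR adjusted p = 0.0139) and Sparc 0.81 ± 0.21 (edgeR adjusted p = 0.0262). The call of Postn was lost without AngII replicate 2, that of Fmod with limma-voom and without Ctrl replicate 2, Ctrl replicate 3, AngII replicate 1 or AngII replicate 2, and that of Sparc without any 1 of the Ctrl replicates, without AngII replicate 2 and under scaling by library size alone. Without Ctrl replicate 2, the WA library with Sln and Myl7, 5 members and 1270 genes were called. The median log2 difference of all 10 members was then 1.51. Without AngII replicate 2, 4 members and 459 genes were called. Tnc (0.82 ± 0.46), Spp1 (0.55 ± 0.47) and Thbs1 (0.08 ± 0.25) did not pass, with edgeR adjusted p of 0.265, 0.479 and 0.871.

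**Figure D2:**
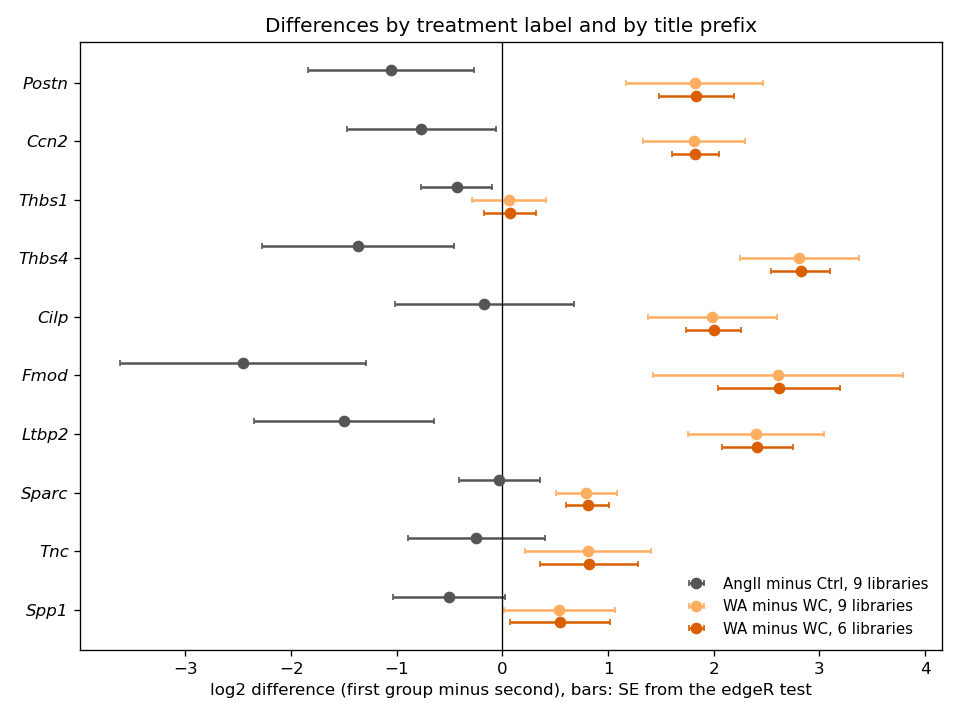
Log2 difference of each gene (points) with its SE (bars) for AngII minus Ctrl and WA minus WC in fits of 9 libraries, and WA minus WC in a fit of 6 libraries. The AngII minus Ctrl values are all negative and none passed the test, and the WA minus WC values of the fit of 6 libraries passed it for 7 of 10 genes.

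The same comparison in the fit of all 9 libraries gave nearly the same differences and no calls. The member median was 1.81, 6 members had an unadjusted p under 0.05 and were higher, against 8.78% of genes, and 0 of 10 members and 0% of genes passed the adjustment. Thbs4, at 2.81 ± 0.57, had the smallest adjusted p of the members (edgeR adjusted p = 0.1996). The common dispersion, edgeR's measure of the spread between libraries of a group, was 0.156 with the KKA libraries in the fit and 0.088 without them. The DESeq2 Wald test on 9 libraries called 505 genes and 4 members, Ccn2, Thbs4, Cilp and Ltbp2. Without Kmo_AngII replicate 1, edgeR called 1576 genes and 2 members, Ccn2 and Thbs4.

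The 3 KKA libraries, which are the Kmo_AngII hearts, did not lie together. In Kmo_AngII replicate 1, 9 of 10 members lay above the whole WC range, as did 34.8% of genes tested, and Spp1 below it. In Kmo_AngII replicate 2, 8 of 10 members lay below the whole WA range, as did 30.7% of genes, and 5 of these (Postn, Cilp, Fmod, Sparc and Tnc) below the WC range as well, as did 11% of genes. In Kmo_AngII replicate 3, all 10 members lay above the WC range, against 31.3% of genes, and 6 (Thbs1, Cilp, Fmod, Ltbp2, Tnc and Spp1) above the WA range, against 38% of genes. Thbs4 had 12.8, 1.83 and 8.94 CPM in KKA, 7.501 to 14.4 CPM in WA and 1.28 to 1.75 CPM in WC. Its replicate 2 thus lay below the WA range and just above the WC range, and the other KKA values lay within the WA range. KKA against WA gave 5 positive and 5 negative members, a median log2 difference of 0.03 and 0 of 10 members called, with 0% of genes called. That median was -0.59 without Kmo_AngII replicate 3 and 0.34 without Kmo_AngII replicate 2, and it was -0.07, -0.17 and -0.10 without Kmo_AngII replicate 1, Ctrl replicate 3 and AngII replicate 3. KKA against WC, which shares the WC libraries with the comparison above, gave 10 positive members with a median of 1.498 and no call among members or among all genes (0%). Without Kmo_AngII replicate 3 the median was 0.96, with all 10 still positive, and Fmod had 1.27 in place of 3.26 and Tnc 0.16 in place of 0.94. At an unadjusted p under 0.05 there were 7 members, all higher, against 2.35% of genes, and Thbs4 alone had no overlap, against 3.66% of genes. The DESeq2 Wald test called 91 genes and 0 members for KKA minus WA, and 27 genes and 2 members, Thbs4 and Ltbp2, for KKA minus WC.

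**Figure D3:**
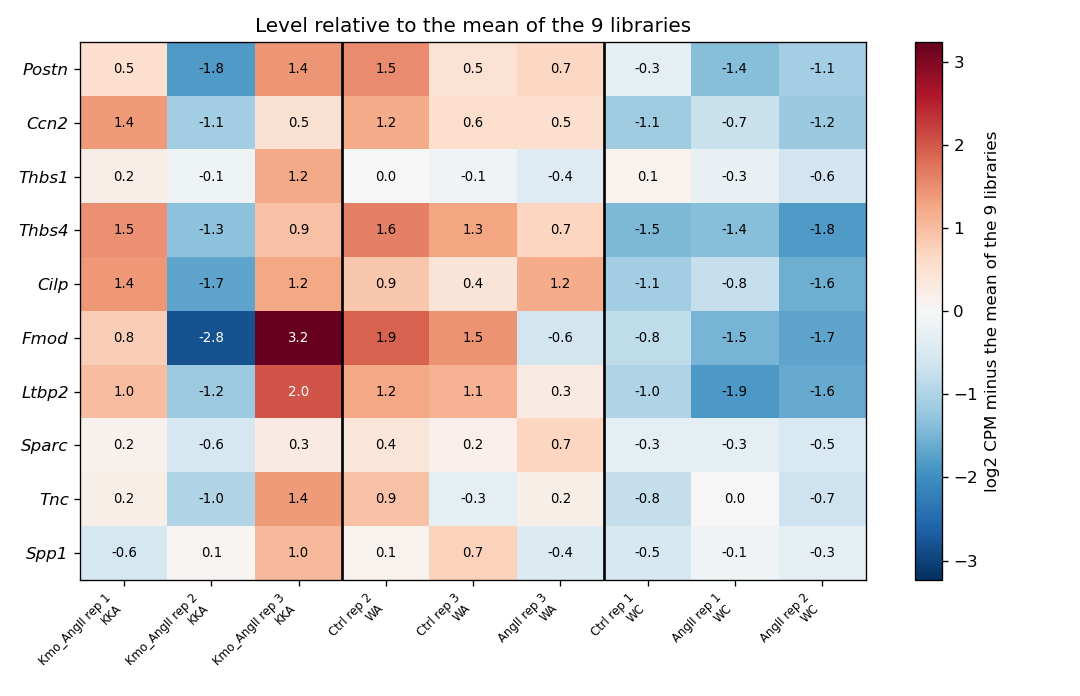
Log2 CPM of each gene (rows) in each library (columns, ordered KKA, WA, WC) minus its mean over the 9 libraries, with the value written in each cell. The 3 WA columns are mostly positive and the 3 WC columns mostly negative, and the KKA columns hold a negative library (replicate 2) between positive ones.

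AngII was also set against Ctrl within each prefix that holds both. Within WC, which has 2 AngII libraries and 1 Ctrl library, Postn had a log2 difference of -0.91 ± 0.97 and Ccn2 of 0.20 ± 0.81. Within WA, which has 1 AngII library and 2 Ctrl libraries, Postn had -0.43 ± 1.01 and Ccn2 -0.38 ± 0.81. A group with a lone library borrows its spread from the others in this fit. Fmod had -0.81 ± 1.64 within WC and -2.32 ± 1.79 within WA, and Ltbp2 -0.78 ± 0.96 within WC and -0.92 ± 0.99 within WA. Of these 8 values, the Fmod value within WA was the 1 that exceeded its SE. The other members went both ways. Within WC and WA in turn, Thbs1 had -0.54 and -0.37 and Thbs4 -0.13 and -0.77. Cilp had 0.007 and 0.54, and Sparc -0.05 and 0.42. Tnc had 0.50 and -0.25, and Spp1 0.34 and -0.95. Among these other members, only the Spp1 value within WA exceeded its SE, which was 0.84.

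Cell type markers and matrix lists also differed between WA and WC, beside the members. Of the 17 lists summed, 11 had WA and WC ranges that did not overlap, 6 higher and 5 lower in WA. The sums of 5 blood genes (116 to 490 CPM in WA, 2944 to 7318 CPM in WC), 5 atrial muscle genes (751 to 1226 CPM in WA, 50.0 to 117 CPM in WC) and 5 neutrophil genes (9.37 to 15.1 CPM in WA, 38.8 to 186 CPM in WC) did not overlap. The same was true of the 6 cardiomyocyte genes (31908 to 42427 CPM in WA, 21143 to 25520 CPM in WC) and the 6 epicardial and mesothelial genes (8.22 to 11.1 CPM in WA, 15.9 to 18.4 CPM in WC). The 6 genes of tendon, cartilage and valve summed to 4.94 to 7.44 CPM in WA and 2.17 to 3.49 CPM in WC, and the 5 endothelial genes to 670 to 823 CPM in WA and 891 to 901 CPM in WC. The 10 genes of activated fibroblasts and myofibroblasts summed to 159 to 173 CPM in WA and 107 to 148 CPM in WC. The 12 fibrillar collagens and collagen-processing genes summed to 368 to 517 CPM in WA and 273 to 360 CPM in WC. In each of these lists a two-sided exact permutation test gave p = 0.1, the smallest that 3 against 3 libraries allow, so that none of the 102 such tests made on summed lists could pass 0.05. Nppa made up nearly all of the atrial sum in 5 of the 6 libraries, and Sln, Myl7 and Bmp10 were at 0 in AngII replicate 3. Wt1 was the largest part of the epicardial and mesothelial sum in each of the 6 libraries. It had 4.34 to 8.04 CPM in WA and 11.95 to 14.4 CPM in WC. Of the 6 genes in that list, 4 had positive log2 differences in the fit of 6 libraries, with a median of 0.54. The part of these cells in the result was not tested. Leaving out the mitochondrially encoded, haemoglobin and Nppa genes left the same 7 members called. The sum of 8 fibroblast markers overlapped, with 768 to 839 CPM in WA and 666 to 876 CPM in WC, and none of them was at 0. Gsn made up most of that sum, with 519 to 589 CPM in WA and 490 to 632 CPM in WC. Of the 8 markers 2 were called, both higher in WA: Col8a1, a short-chain collagen, and Mfap5, a microfibril protein. Pdgfra, the receptor that defines cardiac fibroblasts, had a log2 difference of -0.17 ± 0.16 (edgeR adjusted p = 0.516). Macrophage markers summed to 80.2 to 104 CPM in WA and 106 to 128 CPM in WC, and 1 of 9, Csf1r, was called, lower in WA.

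**Figure D4:**
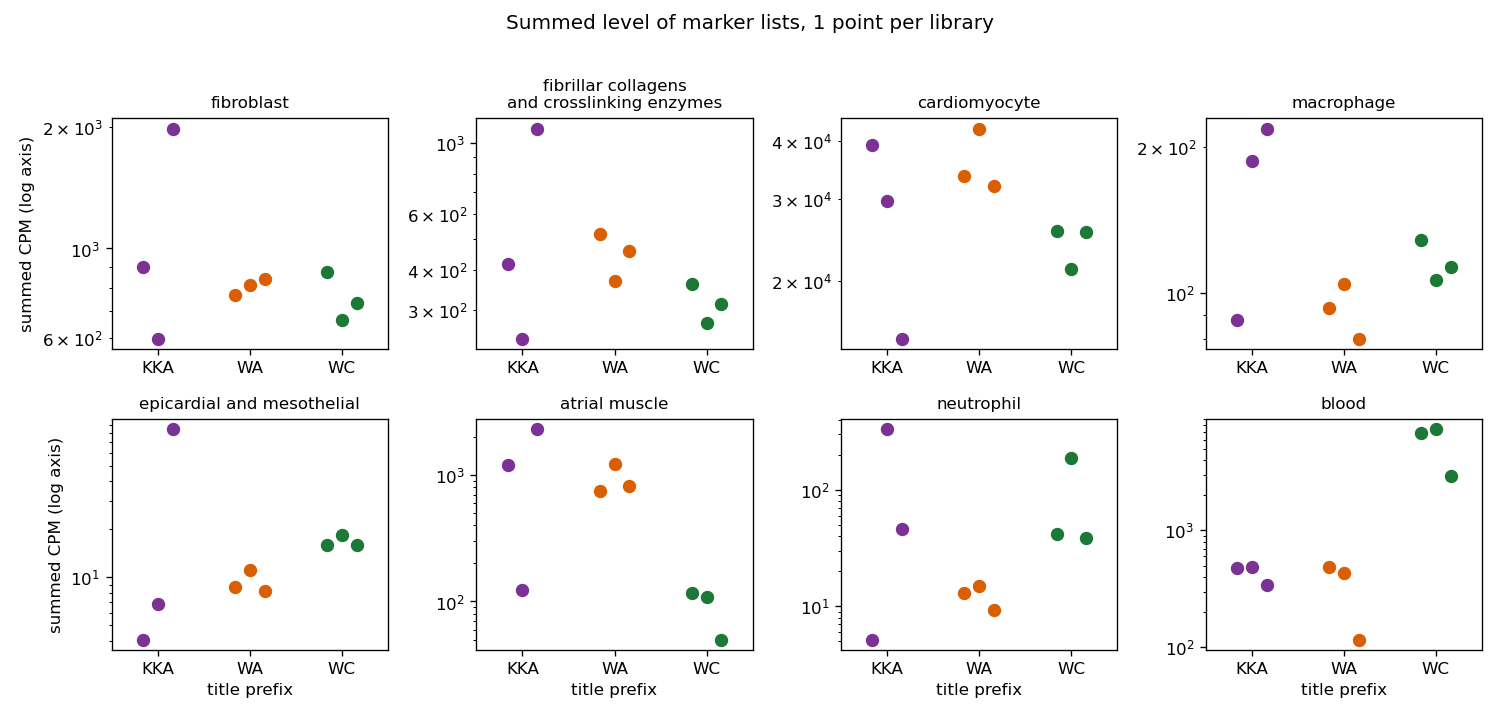
Summed CPM of marker lists (log axes) in each library by title prefix (KKA, WA, WC), with 1 point per library. The fibroblast sums of WA (768 to 839 CPM) and WC (666 to 876 CPM) overlap, the blood and atrial muscle sums do not, and the KKA libraries are widely scattered.

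Other genes of the matrix are described list by list in the fit of 6 libraries, in which 13.3% of all genes were called. Of 18 other matricellular genes, 1 was called higher in WA and 2 lower, with a median log2 difference of -0.01. Ccn1, the close relative of Ccn2, averaged 42.8 ± 5.77 CPM in WA and 18.2 ± 3.90 CPM in WC, with a log2 difference of 1.25 ± 0.19 (edgeR adjusted p = 0.00433). Thbs2, another thrombospondin, averaged 10.9 ± 3.06 CPM in WA and 21.3 ± 1.57 CPM in WC, with a log2 difference of -0.95 ± 0.21 (edgeR adjusted p = 0.0144). Smoc1, of the Sparc family, was also lower, by -1.08 ± 0.30 on the log2 scale. Relatives within 1 family thus went different ways: Ccn2 and Ccn1 were both higher in WA, Thbs4 was higher and Thbs2 lower, and Thbs1 did not pass.

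The receptors and the TGF-beta pathway each had calls in both directions, beside the same 13.3% of all genes. Of 15 integrins and other receptors, 2 were called higher in WA and 1 lower. Itga9, the integrin subunit that binds tenascin-C and osteopontin, averaged 23.4 ± 4.09 CPM in WA and 7.17 ± 0.814 CPM in WC (log2 difference 1.72 ± 0.19, edgeR adjusted p = 0.00134). Itgb1, the common beta subunit, was higher by 0.75 ± 0.18, and Itgb3, which pairs with the alpha-v subunit, had a log2 difference of -1.37 ± 0.38. Of 16 genes of latent TGF-beta binding and signalling, 1 was called higher and 2 lower. Smad3, the transducer of TGF-beta signals, and Eln, elastin, were lower in WA, by -0.84 ± 0.17 and -0.89 ± 0.20.

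Among 12 fibrillar collagens and collagen-processing genes, 4 were called, all higher in WA, beside 13.3% of all genes called. The list did not move as 1: 7 of the 12 had a positive log2 difference and the rest a negative one, with a median of 0.71. Col3a1 averaged 98.7 ± 29.0 CPM in WA and 52.3 ± 6.68 CPM in WC (log2 difference 0.93 ± 0.23, edgeR adjusted p = 0.0234). P4ha1, a collagen prolyl hydroxylase subunit, had 1.13 ± 0.22, and Col6a3, which is grouped here though it forms microfibrils, had 0.86 ± 0.21. Of 8 small leucine-rich proteoglycans tested beside Fmod, 6 were positive and 1, Lum, was called, higher by 0.76 ± 0.20. Of 10 activated fibroblast genes, 7 were positive and 1 was called. This was Timp1, the metalloproteinase inhibitor, higher by 1.45 ± 0.35. For both lists the share called was no larger than the 13.3% of all genes. By treatment label, no gene of any of these lists was called in any of the 3 comparisons. Tgfb2, a TGF-beta ligand, had the smallest p of its list for AngII minus Ctrl, at -1.08 ± 0.27 on the log2 scale (edgeR adjusted p = 0.8905), and also when Kmo_AngII hearts were set against AngII hearts, at 1.05 ± 0.27 (edgeR adjusted p = 0.9998).

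The members were also compared with each other and with 11175 other genes by how they varied over the 9 libraries. The measure was the root mean square difference of log2 CPM after each gene was centred on its own mean, in which a small value means a like pattern, and it is a description with no test. Ccn2 and Cilp were each other's nearest member at 0.43, followed by Ccn2 for Thbs4 at 0.46 and Thbs4 for Ltbp2 at 0.50. Postn was nearest to Ltbp2 at 0.54, and Fmod to Ltbp2 at 0.79. Sparc and Tnc were each other's nearest at 0.53, and Thbs1 and Spp1 at 0.47, but Sparc, Thbs1 and Spp1 varied so little themselves (0.40, 0.50 and 0.53) that this says little. Outside the list the nearest gene was Pam for Ccn2 at 0.29, Fibin for Cilp at 0.35, Myl1 for Thbs4 at 0.36 and for Ltbp2 at 0.45, and Col8a1 for Postn at 0.39. Pam, which encodes a peptide-amidating enzyme abundant in atrial muscle, had 251, 71.6 and 226 CPM in KKA, 164 to 231 CPM in WA and 49.7 to 64.8 CPM in WC. Myl1, a skeletal-type myosin light chain, had 111, 18.5 and 77.6 CPM in KKA, 38.4 to 94.2 CPM in WA and 13.5 to 19.5 CPM in WC. The nearest gene of Fmod was Dkk3, a secreted glycoprotein, at 0.85, of Sparc Adam9 at 0.16, of Tnc Lhfpl2 at 0.31, of Thbs1 Fzd7 at 0.19 and of Spp1 Adgre1, a macrophage receptor gene, at 0.29.

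Promoter sequences are shown for the 5 members that had the largest differences between WA and WC among those with a window, as the sequence around the start of genes that varied alike. RefSeq windows of the build GRCm38.p6, 250 bases before to 50 after the gene's start, were at hand for 8 of 10 members, all but Ccn2 and Thbs1. Capitals mark matches, on either strand, to 4 motifs, and a match on the other strand appears as its reverse complement. The motifs are the TATA box (TATAAA), the site of the factor AP-1 (TGANTCA), the site of the TEAD factors (GGAATG) and the site of the SMAD factors (CAGAC). Each window is printed along its gene's own strand, at chr3:54360857-54361156 (plus) for Postn, chr13:92794769-92795068 (minus) for Thbs4, chr9:65264930-65265229 (plus) for Cilp, chr1:134037004-134037303 (plus) for Fmod and chr12:84876442-84876741 (minus) for Ltbp2.
Postn: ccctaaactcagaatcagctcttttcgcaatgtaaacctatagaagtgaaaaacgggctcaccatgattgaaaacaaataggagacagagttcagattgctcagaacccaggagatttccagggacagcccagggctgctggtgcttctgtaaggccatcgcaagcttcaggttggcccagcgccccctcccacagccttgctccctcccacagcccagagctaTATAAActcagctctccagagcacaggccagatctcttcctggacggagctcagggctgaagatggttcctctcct
Thbs4: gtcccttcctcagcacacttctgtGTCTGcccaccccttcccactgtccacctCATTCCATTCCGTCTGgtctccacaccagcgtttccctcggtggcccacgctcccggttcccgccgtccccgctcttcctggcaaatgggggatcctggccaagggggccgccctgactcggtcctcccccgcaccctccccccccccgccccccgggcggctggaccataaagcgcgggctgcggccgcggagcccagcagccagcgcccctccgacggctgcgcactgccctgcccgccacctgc
Cilp: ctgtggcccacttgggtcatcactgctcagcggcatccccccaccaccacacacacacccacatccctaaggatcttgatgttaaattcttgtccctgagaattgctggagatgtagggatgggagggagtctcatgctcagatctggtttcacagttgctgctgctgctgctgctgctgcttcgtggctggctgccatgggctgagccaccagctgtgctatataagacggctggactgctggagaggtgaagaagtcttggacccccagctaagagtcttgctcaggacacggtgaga
Fmod: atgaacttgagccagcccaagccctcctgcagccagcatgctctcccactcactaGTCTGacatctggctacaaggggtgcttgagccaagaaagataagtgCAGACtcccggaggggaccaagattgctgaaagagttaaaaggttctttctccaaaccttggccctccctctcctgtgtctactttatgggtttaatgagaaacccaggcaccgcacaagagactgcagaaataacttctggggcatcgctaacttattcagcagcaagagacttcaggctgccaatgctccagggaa
Ltbp2: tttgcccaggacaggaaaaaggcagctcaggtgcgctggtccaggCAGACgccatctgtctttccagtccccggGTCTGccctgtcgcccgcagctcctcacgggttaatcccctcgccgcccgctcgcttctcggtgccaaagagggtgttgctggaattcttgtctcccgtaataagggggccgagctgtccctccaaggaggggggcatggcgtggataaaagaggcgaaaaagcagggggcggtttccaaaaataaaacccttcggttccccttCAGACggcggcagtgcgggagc
The Postn window held TATAAA at -26 to -21, counted from the start as 0, and no other match. The Thbs4 window held GGAATG at -197 to -192 and again at -192 to -187, overlapping by 1 base, and CAGAC at -226 to -222 and -186 to -182, all on the other strand. The Fmod window held CAGAC at -148 to -144 and, on the other strand, at -195 to -191. The Ltbp2 window held CAGAC at -205 to -201 and 28 to 32 and, on the other strand, at -176 to -172. The Cilp window held no exact match to the 4 motifs. It did hold tatataag, a TATA-like stretch that a search for the exact letters TATAAA passes over. Over the 8 members, CAGAC was found in 6, against 49.6% of all 32851 windows of this length, TATAAA in 3, against 13.6%, GGAATG in 1, against 14.7%, and TGANTCA in 0, against 7.81%. The TATAAA matches of Tnc and Spp1 lay further from the start than that of Postn, at -126 to -121 and -211 to -206. All of these matches are letters in a window and no measure of binding.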

How the data were processed

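The authors deposited 1 table of whole-number read counts per Ensembl gene and library, per the file headers. Per the submitters' processing notes, the tools were StringTie 1.3.0, HISAT2 2.0 and Bowtie 0.12.2, on the build mm8. The sources used here give neither their roles nor the annotation and strand setting. Per the labels' protocols, poly(A) RNA was sequenced in paired ends, and the protocol names an adipose type where the source field has heart.

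From these counts, edgeR 4.0.16 in R 4.3.3 fitted all 9 libraries once by treatment label and once by title prefix (quasi-likelihood F test, robust, TMM, filterByExpr), with Benjamini-Hochberg adjustment over all genes tested and calls at an adjusted p under 0.05. Log2 differences are first minus second group. Their SE comes from the F statistic and so restates the test. A fit of the 6 WA and WC libraries and a fit with an interaction of label and prefix were added. Exon lengths came from GENCODE, which is of another build than mm8, and symbols matched 55141 identifiers and left 260 without. Every pair of libraries differed beyond counting noise (lowest chi-square per degree of freedom 62.1).

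All 10 members are named whatever their test. Of every other list, up to 3 called genes by smallest p are named, or the gene with the smallest p, and the text gives part of these. One gene that the rule names is not reported here. Pdgfra and the atrial genes Sln, Myl7 and Bmp10 are named outside this rule. Wt1 and Gsn are named as the largest part of a summed list. The members and lists were chosen with earlier results of these data known. Alternatives changed 1 choice at a time: the scaling (DESeq2 size factors or library size alone), the filter (none, or 1 CPM in at least 3 libraries), the test (limma-voom with limma 3.58.1, or the Wald test of DESeq2 1.42.0), the libraries (the groups compared only, or each library left out), the genes (no mitochondrially encoded, haemoglobin or Nppa genes) and a covariate (the other grouping). The DESeq2 Wald test brings its own size factors with it, so that alternative changes the scaling too. Only the edgeR fits of AngII minus Ctrl and of WA minus WC were first checked on simulated counts. The simulated dispersion was lower than the common dispersion of 0.185 and 0.156 in the fits of 9 libraries. It also had no difference in composition between libraries apart from the genes that were changed. That check therefore cannot show how readily these fits call genes in these data. The other comparisons, the other tests, the covariate fits and the fit with an interaction were not checked in this way.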

Additional observations from a re-analysis of the deposited data

Results flagged for a closer look

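Spp1, the osteopontin gene, moved in opposite directions in the 2 title prefixes: every AngII library was higher than the Ctrl library within WC and lower than both Ctrl libraries within WA. Its AngII minus Ctrl log2 difference was -0.95 within WA and 0.34 within WC, which differ by -1.29 ± 1.18 (SE). The edgeR test of that difference gave an unadjusted p of 0.305 and did not pass. Spp1 had 27 to 75 raw counts per library, and 1 of the groups behind each value is a single library. A change of sign was not particular to Spp1. Within WC and WA in turn, Ccn2 had 0.20 and -0.38, Tnc 0.50 and -0.25, and Sparc -0.05 and 0.42.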

How the results depend on the processing

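No paired analysis was possible because the labels number no replicates, and the numbers used here follow sample order only. The other grouping as a covariate could be fitted for AngII minus Ctrl and WA minus WC only, since the KKA libraries are the Kmo_AngII libraries. Counts of genes called moved as follows. The DESeq2 Wald test called 2 genes for AngII minus Ctrl, 3 for Kmo_AngII minus AngII, 9 for Kmo_AngII minus Ctrl, 505 for WA minus WC (4 members), 91 for KKA minus WA and 27 for KKA minus WC (2 members), where edgeR called 0. Fitting only the groups compared called 1 gene for Kmo_AngII minus Ctrl, and 2409 genes and 7 members for WA minus WC. Library size as the only scaling called 11 genes for WA minus WC, 1 for KKA minus WA, 7 for KKA minus WC and 232 in the fit of 6 libraries (2409 with TMM). No low-count filter called 5 genes for WA minus WC, 1 for KKA minus WA and 4 for KKA minus WC. In the fit of 6 libraries TMM gave 1459 genes higher and 950 lower in WA, and library size alone 62 higher and 170 lower.

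Leaving out 1 library gave 0 to 1 genes for each comparison by treatment label, with 0 members. It gave 0 to 1576 genes and 0 to 2 members for WA minus WC, 0 to 1709 genes for KKA minus WA (both highest without Kmo_AngII replicate 1), and 0 to 7 genes and 0 to 2 members for KKA minus WC (highest without Kmo_AngII replicate 2, with Thbs4 and Cilp called). In the fit of 6 libraries it gave 459 to 2980 genes and 4 to 7 members, where leaving out Ctrl replicate 1 gave 1020 genes, Ctrl replicate 2 gave 1270, Ctrl replicate 3 gave 524 and AngII replicate 2 gave 459.

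Directions turned only among values that were not called. For AngII minus Ctrl, library size as the only scaling gave log2 differences of 0.23 for Thbs1, 0.55 for Cilp, 0.65 for Sparc, 0.50 for Tnc and 0.16 for Spp1, and the prefix as a covariate gave 0.28 for Cilp, 0.18 for Sparc and 0.12 for Tnc. For Kmo_AngII minus Ctrl, library size gave 0.10 for Postn, 0.20 for Thbs4 and 0.22 for Sparc, and limma-voom -0.0011 for Ccn2, -0.53 for Fmod and -0.0403 for Spp1. For KKA minus WA, limma-voom gave -0.51 for Fmod, -0.25 for Ltbp2, -0.10 for Tnc and -0.0104 for Spp1. For WA minus WC, Thbs1 was -0.26 with library size in both fits, and -0.077 in the fit of 9 libraries and -0.0613 in the fit of 6 with the treatment label as a covariate. The cause of these turns was not tested.

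Leaving out 1 library also turned directions. For AngII minus Ctrl, Cilp lay between -1.39 and 0.26, Sparc between -0.48 and 0.19 and Tnc between -0.56 and 0.43, with turns without Ctrl replicates 2 or 3 or AngII replicates 1 or 2. For Kmo_AngII minus AngII, Sparc lay between -0.30 and 0.37 and Tnc between -0.17 and 1.01, with turns without AngII replicate 3 or Kmo_AngII replicates 2 or 3. For Kmo_AngII minus Ctrl, Postn lay between -0.95 and 0.44, Ccn2 between -0.60 and 0.61, Thbs4 between -0.76 and 0.29, Fmod between -1.32 and 1.25, Ltbp2 between -0.46 and 0.86, Sparc between -0.28 and 0.10, Tnc between -0.41 and 1.04 and Spp1 between -0.44 and 0.52, with turns without Ctrl replicates 1 or 2 or any Kmo_AngII replicate. For KKA minus WA, Postn lay between -1.16 and 0.0907, Ccn2 between -0.90 and 0.18, Cilp between -0.46 and 0.45, Fmod between -1.34 and 1.23, Ltbp2 between -0.64 and 0.67, Tnc between -0.64 and 0.54 and Spp1 between -0.46 and 0.49, with turns without Ctrl replicates 2 or 3, AngII replicate 3 or Kmo_AngII replicates 2 or 3. For WA minus WC, Thbs1 lay between -0.11 and 0.26 in the fit of 9 libraries and between -0.0852 and 0.27 in the fit of 6, with turns without Ctrl replicate 2 or AngII replicate 2. Depth limits Spp1, Tnc and the low Fmod libraries, since 27, 29 and 12 raw counts were their lowest.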

Other observations

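In Kmo_AngII replicate 3, 6 of the 10 members lay above both the WA and the WC range, as did 22.1% of genes tested. Some other matrix genes were high there too, and those named here were singled out after their values were seen. Cilp2, a relative of Cilp, had 20.9 CPM there, and 0 to 1.24 CPM in the other 8 libraries. Comp, the thrombospondin of cartilage and tendon, had 18.9 CPM there, against 0.686 to 4.60 CPM in the others. Lum, Fbln1 and Podn, which encode lumican, fibulin-1 and podocan, had 92.3, 175 and 118 CPM, against at most 37.5, 54.5 and 38.2 CPM. Col1a1 had 198 CPM, against 19.98 to 80.1 CPM. This is 1 library, so none of these values has a replicate check.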
